A study of Homo sapiens with 17 samples.

Results

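Aminoacyl-tRNA synthetases are the enzymes that join each amino acid to its tRNA, and their mRNAs were followed through an acRIP-seq experiment in HEK293T cells, a line derived from human embryonic kidney. The members were the rows of the count table that carry the symbols of 36 cytosolic and mitochondrial synthetase genes, out of 23368 genes in the table. Of these, 20 encode cytosolic enzymes, including GARS and KARS, whose products serve both the cytosol and the mitochondrion, and 16 encode mitochondrial enzymes. All 36 passed the filter on low counts in every comparison.

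acRIP-seq uses an antibody to recover poly(A) RNA that carries N4-acetylcytidine (ac4C), an acetylated form of cytidine, and reads the recovered RNA by sequencing. The 17 libraries fell into 6 groups. Cells labelled WT gave 3 input libraries, 3 anti-ac4C pull-downs (IP) and 2 pull-downs with control immunoglobulin G (IgG). Cells treated with siRNA against TARDBP, the gene of the RNA-binding protein TDP43 (siTDP43), gave 3 libraries of each kind. The labels name no control siRNA in the WT cells and no separate cultures, so that TDP43 loss, transfection and any difference between the preparations cannot be told apart, and the p-values measure the spread between libraries, which may be technical. Each pull-down was amplified by Smart-seq2 from an amount of RNA too low to quantify.

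The synthetases fall into class I and class II by the fold of their catalytic domain. In the cytosol, 8 of the listed enzymes (DARS, EPRS, IARS, KARS, LARS, MARS, QARS and RARS) sit in the multisynthetase complex with the scaffold proteins AIMP1, AIMP2 and EEF1E1. The mitochondrial enzymes are encoded in the nucleus, mostly by separate genes with names ending in 2, and charge the tRNAs used to translate the few proteins of the mitochondrial genome. Many cytosolic synthetase genes are textbook targets of ATF4, the transcription factor that answers amino acid shortage, and WARS is also induced by interferon.

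Library totals ran from 9022250 counts (WT IgG) to 36583436 counts (WT input) in WT cells. In siTDP43 cells they ran from 24542434 to 31030950 counts for input, 8610070 to 15736165 for IP and 3013989 to 3436811 for IgG, so the siTDP43 IgG values are the least precise. TARDBP lay between 150 and 157 CPM (counts scaled to a common library size by TMM) in the WT inputs and between 98.6 and 106 CPM in the siTDP43 inputs, a log2 change of -0.57 (SE 0.045, edgeR adjusted p = 6.55e-13). A list of 8 HEK293T marker genes summed to between 937 and 974 CPM in WT input and between 525 and 558 CPM in siTDP43 input, with none of the 8 at 0 in either. Of the 7 tested, 4 rose, among them NEFL (mean 65.2 to 186 CPM), and 3 fell, among them VIM (787 to 262 CPM), which carried most of the sum. The 6 markers of blood, liver, endothelial and muscle cells summed to at most 3.9 CPM in any input library. In such bulk RNA, fewer cells of a type and less RNA per cell cannot be told apart.

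The first question was which sequence features the members share, since the rule that chose them used none. The element TGATGNAA, to which ATF4 binds together with C/EBP family partners, was searched on both strands of the promoter windows given by RefSeq for GRCh38.p14, each running from 250 bases before to 50 bases after a transcription start. It was found for 8 of the 30 members that have a promoter entry (26.7%), and for 4.46% of all 27305 genes that have one. The narrower form TGATGCAA was found for 6 of the 30 members (20%) and for 1.08% of all genes. A match is a description of the letters and not a measured site. These 8 windows are shown because the ATF4 response is examined again below in the expression of its targets. The capitals mark the element in either orientation, and each line is read 5′ to 3′ on the strand of the gene.
AARS (chr16:70289676-70289703, minus strand): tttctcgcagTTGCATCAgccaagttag
CARS (chr11:3057408-3057435, minus strand): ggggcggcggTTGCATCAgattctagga
GARS (chr7:30594835-30594862, plus strand): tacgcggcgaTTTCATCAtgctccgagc
IARS (chr9:92293693-92293720, minus strand): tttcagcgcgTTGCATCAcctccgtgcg
MARS (chr12:57488054-57488081, plus strand): ccggttccggTTGCATCAgcgagggatt
NARS (chr18:57621805-57621832, minus strand): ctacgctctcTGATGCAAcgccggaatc
TARS (chr5:33440957-33440984, plus strand): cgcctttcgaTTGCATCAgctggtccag
YARS2 (chr12:32756077-32756104, minus strand): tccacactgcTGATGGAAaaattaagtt

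Of these 8 genes, 7 encode cytosolic or shared enzymes and YARS2 encodes a mitochondrial one. The first base of the match lay between 197 bases before the start (YARS2) and 14 bases after it (NARS). No promoter entry was found for AARS2, DARS, LARS, VARS, VARS2 and YARS.

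A second feature was the 8-base motif UCCCAGCU, which the study derived from its own ac4C peaks, so that it is not independent of these libraries. It was searched as TCCCAGCT on the sense strand of the annotated exons (hg19). At least 1 match was present in 5 of the 36 members (13.9%), against 16.7% of all genes with a gene model and 18.7% of those within the exon length range of the members. The TDP43-preferred motif UGUGCG was present in 11 members (30.6%), against 25.9% of all genes and 29.7% of those of like length. For both motifs the share of members lay near that of all genes. A site in each of AARS2, TARS2 and FARS2 is shown, with the motif in capitals, because a pull-down comparison of each of these 3 mRNAs had opposite calls in WT and siTDP43 cells.
AARS2 (chr6:44267103-44267130, minus strand, untranslated exon): cacaccttggTCCCAGCTacttgggagg
TARS2 (chr1:150470133-150470160, plus strand, coding exon): ctgacaggccTCCCAGCTcccagagtga
FARS2 (chr6:5369185-5369212, plus strand, coding exon): agcctgctcaTCCCAGCTgatcacccca

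The flanks of this AARS2 site read like Alu repeats, a common family of primate interspersed elements, although no repeat annotation was used here. Other sites lay in untranslated exons of AARS2 and LARS and a coding exon of QARS. LARS and QARS had no opposite calls, while MARS2, which also had opposite calls, held 0 matches.

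Input RNA was compared first, to ask how the synthetase mRNAs themselves differed between siTDP43 and WT cells. Most of them were higher in siTDP43 cells. In all, 24 of the 36 members rose and 9 fell at an edgeR adjusted p under 0.05, while 38.6% of all 14036 genes tested rose and 40.6% fell. The median log2 change of the members was 0.42, against -0.05 over all genes tested. The summed level of the 36 mRNAs was 7373 ± 47.5 CPM (SD, n = 3) in WT input and 9006 ± 58.5 CPM in siTDP43 input. The cytosolic and shared enzymes accounted for 6628 ± 37.5 CPM of the WT sum and 7572 ± 45.4 CPM of the siTDP43 sum. The mitochondrial enzymes accounted for 745 ± 10.4 CPM and 1434 ± 30.6 CPM, respectively.

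**Figure D1:**
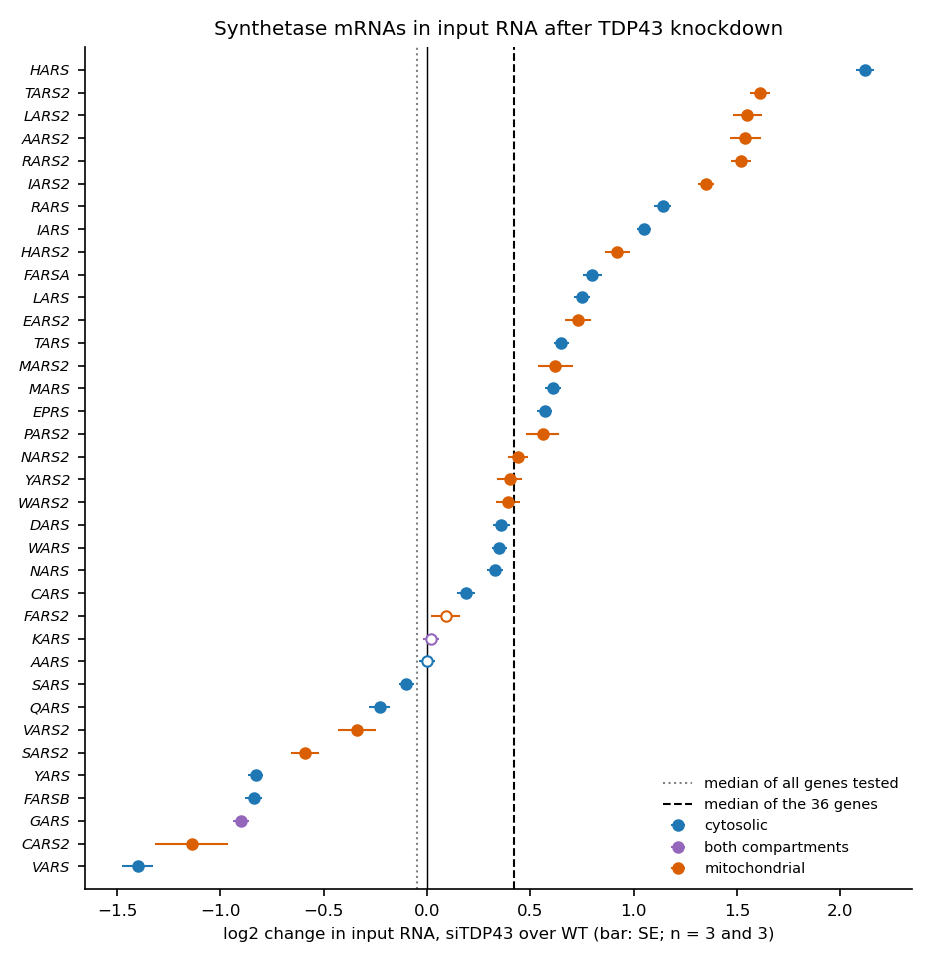
The log2 change in input RNA between siTDP43 and WT cells is plotted for each of the 36 synthetase genes, ordered by size, with bars for the standard error (n = 3 and 3); filled points passed an adjusted p of 0.05 and open points did not. HARS stands highest at 2.12 and VARS lowest at -1.40, and the median of the members (0.42, dashed line) lies to the right of that of all genes tested (-0.05, dotted line).

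In the multisynthetase complex, 6 of 8 members rose, QARS fell and KARS did not pass the test. RARS, the arginyl-tRNA synthetase, read 144, 146 and 143 CPM in WT input and 311, 315 and 326 CPM in siTDP43 input. IARS, the isoleucyl enzyme, read 439, 422 and 432 CPM in WT and 887, 901 and 882 CPM in siTDP43. Every siTDP43 library lay above every WT library for both genes, and the changes were 2.21-fold for RARS (log2 1.14, SE 0.040, edgeR adjusted p = 8.85e-22) and 2.07-fold for IARS (log2 1.05, SE 0.036, adjusted p = 5.74e-22). LARS, MARS and DARS rose by smaller amounts, with log2 changes of 0.75, 0.61 and 0.36. EPRS, which carries the glutamyl and prolyl activities in a single protein, read 270, 273 and 274 CPM in WT and 406, 398 and 406 CPM in siTDP43 (log2 0.57, SE 0.037, adjusted p = 7.15e-15). The MARS exons overlap those of DDIT3 on the other strand, and DDIT3 changed by -2.31. QARS, the glutaminyl enzyme, fell to 0.85-fold (log2 -0.23). KARS, the lysyl enzyme, read 442, 473 and 468 CPM in WT and 460, 465 and 468 CPM in siTDP43, with overlapping libraries and a log2 change of 0.02 (SE 0.038, adjusted p = 0.702). Of the 3 scaffold genes, AIMP2 (-0.31) and EEF1E1 (-0.43) fell, while AIMP1 had a change of 0.01 and did not pass the test.

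Of the 12 cytosolic or shared enzymes outside the complex, 6 rose, 5 fell and AARS, the alanyl enzyme, did not pass the test (log2 change 0.00). HARS, the histidyl-tRNA synthetase, had the largest rise of all 36 members. It read 56.1, 53.7 and 54.8 CPM in WT input and 239, 242 and 232 CPM in siTDP43 input, without overlap. This was a 4.36-fold difference (log2 2.12, SE 0.045, edgeR adjusted p = 3.39e-27). FARSA and FARSB encode the 2 subunits of the cytosolic phenylalanyl enzyme, and they changed in opposite directions. FARSA read 223, 210 and 216 CPM in WT and 400, 375 and 346 CPM in siTDP43 (log2 0.80, adjusted p = 2.22e-16). FARSB read 346, 346 and 356 CPM in WT and 186, 192 and 206 CPM in siTDP43 (log2 -0.84, adjusted p = 5.56e-18). Thus FARSB was the more abundant of the pair per length of exon in WT input (156 against 117 CPM per kb) and the less abundant in siTDP43 input (87.2 against 202 CPM per kb). TARS (0.65), WARS (0.35), NARS (0.33) and CARS (0.19) rose as well.

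The 5 falls in this group included the synthetases of glycine and tyrosine. GARS, the glycyl enzyme, read 527, 521 and 530 CPM in WT and 283, 276 and 280 CPM in siTDP43, with no overlap (0.53-fold, log2 -0.90, SE 0.037, edgeR adjusted p = 4.96e-20). YARS, the tyrosyl enzyme, had the highest level per length of the members in WT input and read 981, 962 and 975 CPM there and 549, 545 and 540 CPM in siTDP43 input (0.56-fold, log2 -0.83). The YARS exons overlap S100PBP on the other strand, and counts without strand would not separate the pair. VARS, the valyl enzyme, had the largest fall of the members, from 44.5, 43.2 and 43.4 CPM to 17.5, 16.0 and 15.7 CPM (log2 -1.40, SE 0.075). VARS is listed on 7 contigs that carry copies of the same region, so that reads which fit several copies may have gone uncounted and its level is uncertain. SARS, the seryl enzyme, differed by -0.10.

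In the mitochondrial group, 12 of 16 members rose, 3 fell and FARS2 did not pass the test (log2 0.09, adjusted p = 0.26). TARS2, the mitochondrial threonyl enzyme, read 59.6, 62.5 and 60.6 CPM in WT input and 187, 192 and 177 CPM in siTDP43 input. LARS2, the leucyl enzyme, read 20.8, 18.5 and 18.7 CPM in WT and 59.7, 54.3 and 55.2 CPM in siTDP43. AARS2, the alanyl enzyme, read 15.8, 17.6 and 16.2 CPM in WT and 48.2, 49.7 and 46.1 CPM in siTDP43. The libraries of the 2 genotypes were well separated for all 3 genes, and the rises were 3.06-fold for TARS2 (log2 1.61, SE 0.048, edgeR adjusted p = 1.22e-23), 2.93-fold for LARS2 (log2 1.55, SE 0.071, adjusted p = 7.46e-19) and 2.91-fold for AARS2 (log2 1.54, SE 0.074, adjusted p = 2.62e-18). RARS2, the arginyl enzyme (log2 1.52), and IARS2, the isoleucyl enzyme (log2 1.35), rose by more than 2-fold too.

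HARS2, the mitochondrial histidyl enzyme, lies head to head with HARS on chromosome 5, with 46 bases between the annotated genes. It rose 1.90-fold (log2 0.92, SE 0.060), less than the 4.36-fold of its neighbour. The smaller rises, with log2 changes between 0.39 and 0.73, were those of EARS2, MARS2, PARS2, NARS2, YARS2 and WARS2. CARS2, the cysteinyl enzyme, fell from 6.31, 6.66 and 7.84 CPM to 3.82, 2.85 and 2.69 CPM (log2 -1.14, SE 0.176, edgeR adjusted p = 7.91e-07). SARS2 (-0.59) and VARS2 (-0.34) fell by less. SARS2 shares exon sequence with MRPS12 on the other strand, and VARS2 is listed on 6 contigs.

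Per length, the members spanned a wide range of levels in WT input. VARS and VARS2 are left out of the order because of their copies. The highest was YARS at 312 ± 3.13 CPM per kb of exon (SD, n = 3), followed by KARS (210 ± 7.70) and GARS (191 ± 1.65). The lowest were AARS2 (3.45 ± 0.199), CARS2 (3.73 ± 0.428) and LARS2 (4.61 ± 0.304). AARS2 and CARS2 did not differ beyond their spread, nor did AARS and TARS (121 each), WARS and IARS (93.9 and 94.2) or RARS and QARS (67.5 and 67.6). The median was 94.0 CPM per kb in the cytosolic and shared group and 15.6 CPM per kb in the mitochondrial group. These medians and those of siTDP43 input below include VARS and VARS2. In siTDP43 input the highest levels were those of MARS (213 CPM per kb) and KARS (212 CPM per kb), which did not differ beyond their spread, and the lowest that of CARS2 (1.68 CPM per kb), with medians of 120 and 17.4 CPM per kb in the 2 groups.

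**Figure D2:**
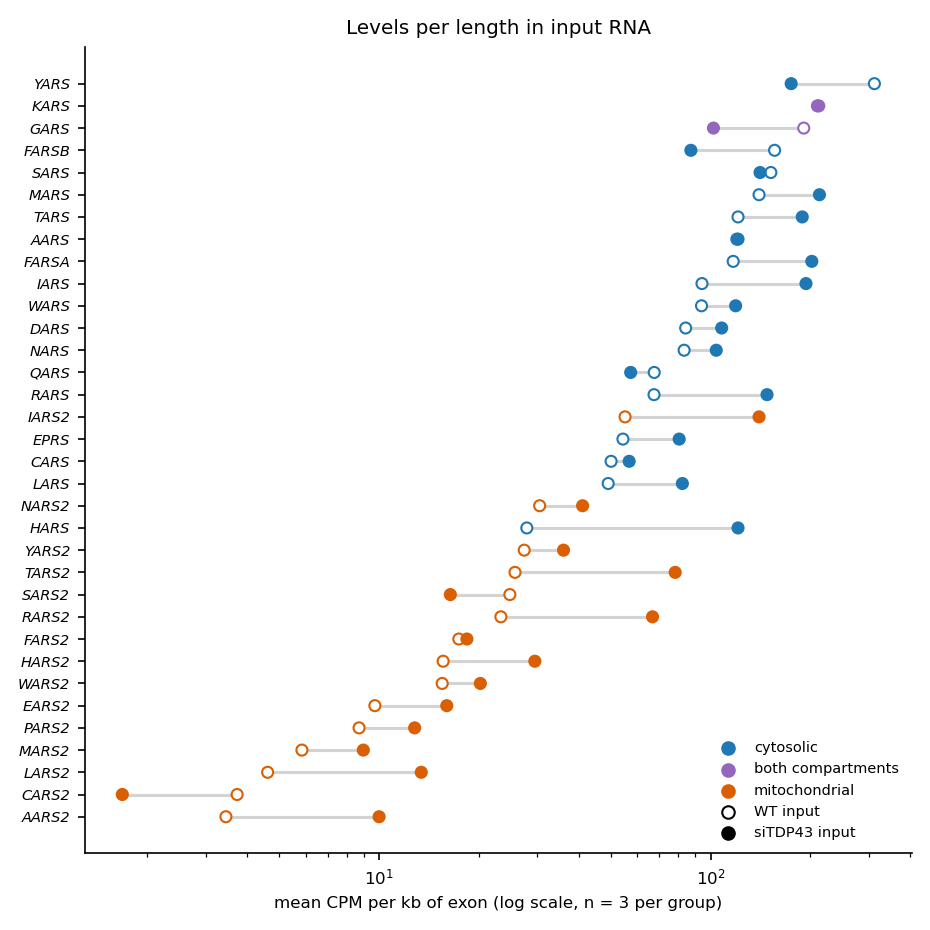
Mean CPM per kb of exon in input RNA is plotted on a log axis for 34 members (VARS and VARS2 are left out), with open points for WT and filled points for siTDP43 (n = 3 each), ordered by the WT level. Apart from IARS2 in both genotypes, and TARS2 and RARS2 in siTDP43, the mitochondrial enzymes lie below 50 CPM per kb, and HARS moves farthest to the right, from 27.9 to 121 CPM per kb.

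The direction of the synthetase mRNAs was set beside that of other genes of the same pathways. Of 24 genes of the ATF4 and amino acid response, 4 rose and 17 fell, with a median log2 change of -1.13. The largest fall was that of NUPR1, a stress-induced nuclear protein, at -4.29. ASNS, which makes asparagine, changed by -1.84. TRIB3, a feedback inhibitor of the response, changed by -3.16, and ATF3, a transcription factor downstream of ATF4, by -3.85. Among the 4 that rose was ALDH18A1, which acts in proline synthesis, at 1.36. Of the 8 synthetases whose promoter window held TGATGNAA, 6 rose, GARS fell and AARS did not pass the test. The share that rose (75%) lay near that of all 36 members (66.7%), with medians of 0.36 and 0.42. Whether the element had a part in these changes was not tested.

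The 4 genes that turn charged mitochondrial tRNAs into Gln-tRNA and formylated Met-tRNA all rose, with GATC, a subunit of the glutamyl-tRNA amidotransferase, at 1.82. Of 22 genes for tRNA maturation and export, 15 rose and 4 fell, with a median of 0.65. They included POP1, a subunit of RNase P (1.59), XPOT, the tRNA exporter (0.60), and TSEN34, a subunit of the tRNA splicing endonuclease (-2.51). Of 6 genes for tRNA editing and recycling 3 rose and 2 fell. SEPSECS, which makes selenocysteinyl-tRNA, changed by -0.79.

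All 9 interferon-induced genes tested fell. The list of 12 summed to between 1451 and 1466 CPM in WT input and between 71.5 and 74.6 CPM in siTDP43 input. WARS, which is inducible by interferon, went the other way, from 276, 280 and 280 CPM to 348, 350 and 365 CPM (1.28-fold, log2 0.35, SE 0.038, edgeR adjusted p = 8.73e-10). The part of this large difference in interferon-induced RNA in the changes of the members was not tested.

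The next comparison asked which synthetase mRNAs the anti-ac4C antibody recovered from WT cells. As a group they were recovered poorly relative to input. At an adjusted p under 0.05 and more than 2-fold, 2 of the 36 members were higher in IP than in input and 19 were lower, against 30.2% and 27.3% of all 14751 genes tested. The median log2 ratio was -1.05 for the members and 0.01 for all genes. Their summed level was 3666 ± 37.8 CPM in WT IP (SD, n = 3), about the same in each of the 3 libraries (3636 to 3708 CPM). All ratios here are relative within a library, since the acetylated spike-in was not used.

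In summed level, the control pull-down held less of these mRNAs than input as well. Their sum in WT IgG was 5108 ± 41.6 CPM (SD, n = 2). Compared with input, 2 members were higher and 14 were lower in IgG, against 24.4% and 36.6% of all genes. The share of members lower (38.9%) thus lay near that of all genes, with medians of -0.68 and -0.39. After removal of a GC trend from each library, 6 members were higher and 8 lower (31.9% and 28.8% of all genes), with medians of -0.04 and 0.07. Compared with IgG, 6 members were higher and 11 lower in IP, against 35.2% and 17.8% of all genes, with a median of -0.31 against 0.29. With the GC trend removed these counts were 3 and 18, against 27% and 29.8% of all genes, with medians of -1 and -0.22. GC content of the exons and the log2 ratio of IP over input had a Spearman correlation of 0.36 over the 36 members in WT, given as a description since the genes share the same libraries.

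The members lowest in IP relative to input were RARS2, MARS and YARS2. RARS2 read 42.7, 42.7 and 42.6 CPM in input, 5.87, 6.45 and 6.83 CPM in IP, and 47.9 and 43.1 CPM in IgG. The IP libraries therefore lay far below both others, with log2 ratios of -2.73 over input (SE 0.1, edgeR adjusted p = 8.23e-18) and, relative to IgG, of -2.85 (SE 0.113, adjusted p = 1.9e-16). YARS2, the mitochondrial tyrosyl enzyme, had the same order, with 53.5, 62.4 and 62.6 CPM in input, 11.5, 14.1 and 11.5 CPM in IP and 71.0 and 61.3 CPM in IgG (-2.26 over input and -2.44 over IgG). MARS read 406, 415 and 407 CPM in input, 80.9, 76.8 and 84.0 CPM in IP and 91.7 and 95.7 CPM in IgG. It was thus low in both pull-downs, with log2 ratios of -2.34 for IP over input and -2.10 for IgG over input, and IP over IgG was -0.24. IARS behaved likewise, with -2.24 for IP over input and -2.04 for IgG over input.

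Only 2 members were higher in WT IP than in input. AARS2 read 42.1, 45.5 and 48.4 CPM in IP, above 15.8, 17.6 and 16.2 CPM in input and 18 and 21.8 CPM in IgG, without overlap. The log2 ratio to input was 1.46 (SE 0.095, edgeR adjusted p = 6.56e-13), and that to IgG was 1.17 (SE 0.121, adjusted p = 5.55e-09). VARS2 read 49.3, 42.1 and 47.2 CPM in IP and 21.3, 22 and 20.5 CPM in input (log2 1.13), but 36.6 and 45.3 CPM in IgG, where IP over IgG was 0.16 and did not pass. Its ratio over input was 0.75 with limma and 0.28 with the GC trend removed, under 2-fold. An mRNA counted as ac4C(+) if its IP exceeded input and IgG alike at these thresholds, and AARS2 was the 1 member of 36 that did so in WT, against 15.6% of all genes tested. After removal of the GC trend the ratios of AARS2 were 0.96 and 0.28, below the 2-fold threshold, and no member was ac4C(+). A threshold of more than 5-fold over IgG left none either.

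GARS had the highest level per length of the members in WT IP (283 CPM per kb), at 753, 768 and 816 CPM, while input held 521 to 530 CPM and IgG 471 and 556 CPM. The IP libraries lay above all others, but the log2 ratios of 0.57 over input (SE 0.054) and 0.58 over IgG (SE 0.062) stayed under the 2-fold threshold. HARS, LARS2, PARS2, TARS2 and HARS2 were more than 2-fold higher in IP than in IgG but not than in input, where PARS2 had a log2 ratio of 0.30 (adjusted p = 0.0108) and the others were below 0. TARS2 read 56.8, 51.2 and 51.8 CPM in IP, 12.9 and 17.1 CPM in IgG and 59.6 to 62.5 CPM in input (1.81 over IgG, SE 0.115, -0.19 over input). HARS2 had no count in either WT IgG library, and against a floor of 3 counts per library its mean of 16.3 CPM in IP was at least 54.4-fold higher and its mean of 38.9 CPM in input at least 129.9-fold higher. FARS2 had the reverse pattern, with 80.6 and 60.5 CPM in IgG, 31.6 to 32.2 CPM in input and 16.5, 17.6 and 18.2 CPM in IP (IP over IgG -2.04, SE 0.109).

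**Figure D3:**
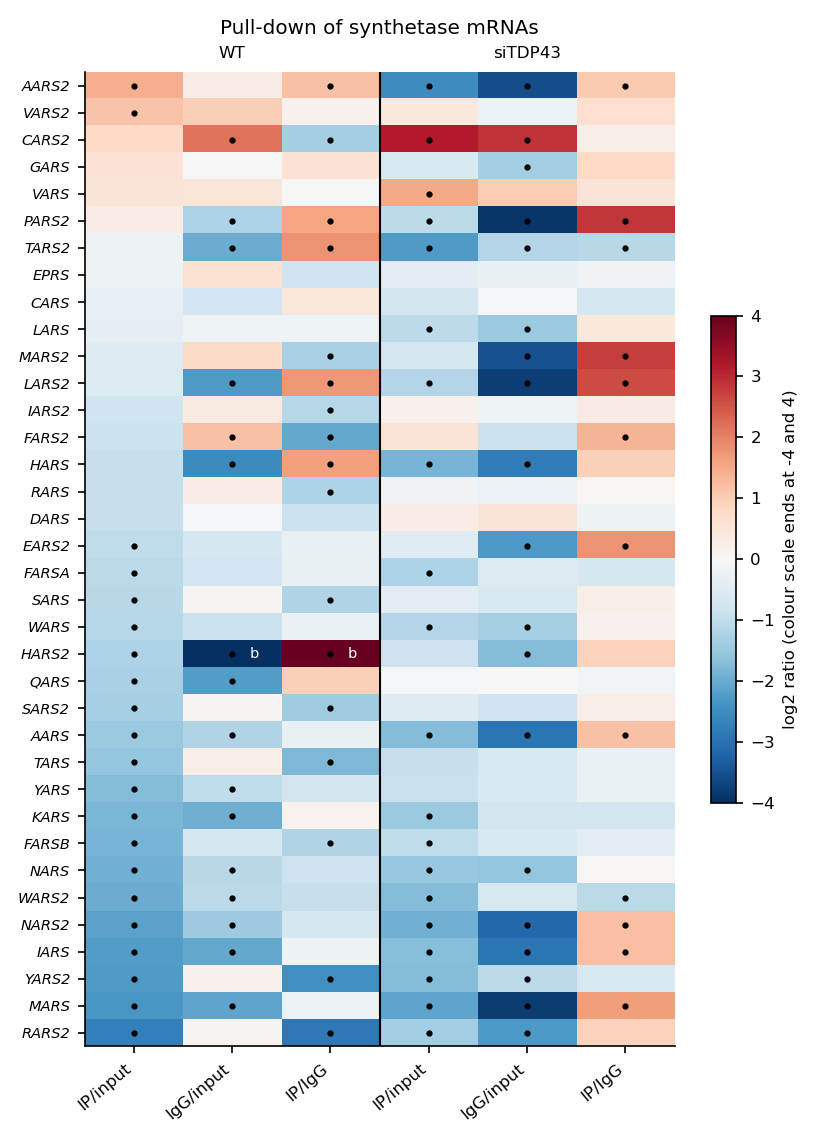
Colour gives the log2 ratio of IP over input, IgG over input and IP over IgG in WT (left) and siTDP43 cells (right) for the 36 members, ordered by WT IP over input; dots mark an adjusted p under 0.05 with more than 2-fold, b marks HARS2 ratios shown at their bound (WT IgG had 0 counts), and the colour scale ends at -4 and 4. Most members are blue in the IP/input columns of both genotypes, with 19 and 18 lower calls, and AARS2 is red in WT and blue in siTDP43.

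The same comparison in siTDP43 cells gave a like picture over input. Here 2 members were higher and 18 lower in IP, against 26.8% and 25.4% of all 12746 genes tested, with a median of -0.97 against -0.09. Compared with IgG, however, 10 members were higher and 2 lower in IP, against 34.0% and 15% of all genes, with a median of 0.31 against 0.33. Under total count scaling and with the GC trend removed, the medians of the members and of all genes shifted together. With limma the member median rose from 0.31 to 0.43, while that of all genes went from 0.33 to 0.31. The counts were 13 and 0 under total count scaling (37.4% and 12.2% of all genes, medians 0.53 and 0.54), 12 and 0 with limma on log2(FPKM + 1) (23.2% and 8.3%, medians 0.43 and 0.31), and 5 and 9 after removal of the GC trend (24.4% and 29.9%, medians -0.34 and -0.32). In IgG, 1 member was higher and 18 were lower than in input (24.7% and 41.0% of all genes), or 4 and 12 with the GC trend removed (34.7% and 29.5%). By edgeR, no member was ac4C(+) in siTDP43 cells, where 10.3% of all genes tested were, and the count was also 0 at an unadjusted p under 0.05 with the same fold, by DESeq2 and by limma.

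The member highest in siTDP43 IP over input was CARS2, at 23.5, 27.0 and 26.2 CPM in IP and 3.82, 2.85 and 2.69 CPM in input (log2 3.18, SE 0.208, edgeR adjusted p = 5.18e-12). IgG held 24.2, 15.8 and 19.6 CPM, so both pull-downs exceeded input, and IP over IgG was 0.28 (adjusted p = 0.241). VARS was also higher in IP than in input (log2 1.51, SE 0.146), with 0.51 over IgG (adjusted p = 0.0104, under 2-fold). The ratio over input of VARS was 0.56 with limma and 0.47 with the GC trend removed, below the 2-fold threshold in both. At the other end stood AARS2 and TARS2. AARS2 read 8.17, 5.06 and 9.47 CPM in IP, 48.2, 49.7 and 46.1 CPM in input, and 2.94, 0.809 and 6.4 CPM in IgG. TARS2 read 32.6, 38.6 and 32.1 CPM in IP, 187, 192 and 177 CPM in input, and 69.8, 74.5 and 68.7 CPM in IgG. Both mRNAs were lower in IP than in input (AARS2 -2.52, SE 0.215, adjusted p = 4.96e-10; TARS2 -2.28, SE 0.095, adjusted p = 1.68e-15), and the 2 differed against IgG, where AARS2 was higher (1.04, SE 0.393, adjusted p = 0.0221) and TARS2 lower (-1.12, SE 0.110, adjusted p = 1.07e-08). The AARS2 values in IP and IgG overlapped, and that call was lost without siTDP43 IP replicate 1 or 3 or without siTDP43 IgG replicate 1 or 2, at ratios from 0.61 to 0.97, and also with the GC trend removed (0.59) or with limma (0.65). Without siTDP43 IgG replicate 3 the ratio was 1.89.

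PARS2, MARS2 and LARS2, 3 mitochondrial enzymes for proline, methionine and leucine, had the largest ratios of IP over IgG in siTDP43 cells, at 2.85, 2.77 and 2.61. In each of them the IgG libraries held very little, at most 4.41 CPM, and IP stayed below input. PARS2 read 13.0, 14.9 and 12.0 CPM in IP, 1.84, 2.02 and 1.42 CPM in IgG and 29.8, 31.3 and 30.3 CPM in input. MARS (1.67) and IARS (1.21) of the multisynthetase complex and AARS (1.16) were higher than IgG too. WARS2, the tryptophanyl enzyme, was the second member lower than IgG (-1.09, SE 0.199), and without siTDP43 IP replicate 1 it missed the 2-fold threshold (-0.86).

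Levels in the IgG pull-down, which carries no ac4C antibody, set apart several members on their own. In WT, CARS2 was higher in IgG (30.2 and 31.0 CPM) than in input (6.31 to 7.84 CPM), with a log2 ratio of 2.17 (SE 0.148, edgeR adjusted p = 2.16e-12). HARS was lower in IgG (10.3 and 8.02 CPM) than in input (53.7 to 56.1 CPM), with a ratio of -2.55 (SE 0.123). LARS2 was lower too (1.55 and 6.38 CPM in IgG, ratio -2.28, SE 0.273), on IgG libraries that differed by several fold. In siTDP43 cells the lowest ratios of IgG over input were those of PARS2 (-3.89), MARS (-3.79) and LARS2 (-3.78). MARS read 32.3, 35.6 and 46.3 CPM in siTDP43 IgG, 134, 128 and 122 CPM in IP and 642, 618 and 601 CPM in input. It was therefore above IgG and below input in IP. EARS2, the mitochondrial glutamyl enzyme, read 40.6, 41.2 and 39.5 CPM in siTDP43 IP and 11.7, 8.09 and 12.8 CPM in IgG (log2 1.81, SE 0.175), while its input held 60.1 to 67.8 CPM.

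The difference between the genotypes was tested directly as an interaction over all 17 libraries. For IP over input, 18 members had a higher ratio in siTDP43 and 12 a lower one, against 31.5% and 36.3% of all 15165 genes tested, with a median of 0.24 against -0.19. The counts moved with all genes under other scalings. Total count scaling gave 13 and 15 members (25.1% and 43.5% of all genes), with medians of -0.05 for the members and -0.48 for all genes. Removal of the GC trend gave 21 and 7 members (38.2% and 29.7%), with medians of 0.53 and 0.11, and limma on log2(FPKM + 1) gave 10 and 14 (24.1% and 46.7%), with -0.07 and -0.27. For IP over IgG, 26 members were higher and 7 lower in siTDP43, against 34.9% and 25.9% of all genes, with a median of 0.89 against 0.24. Both interactions share their IP libraries, and the WT IgG group rests on 2 libraries.

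**Figure D4:**
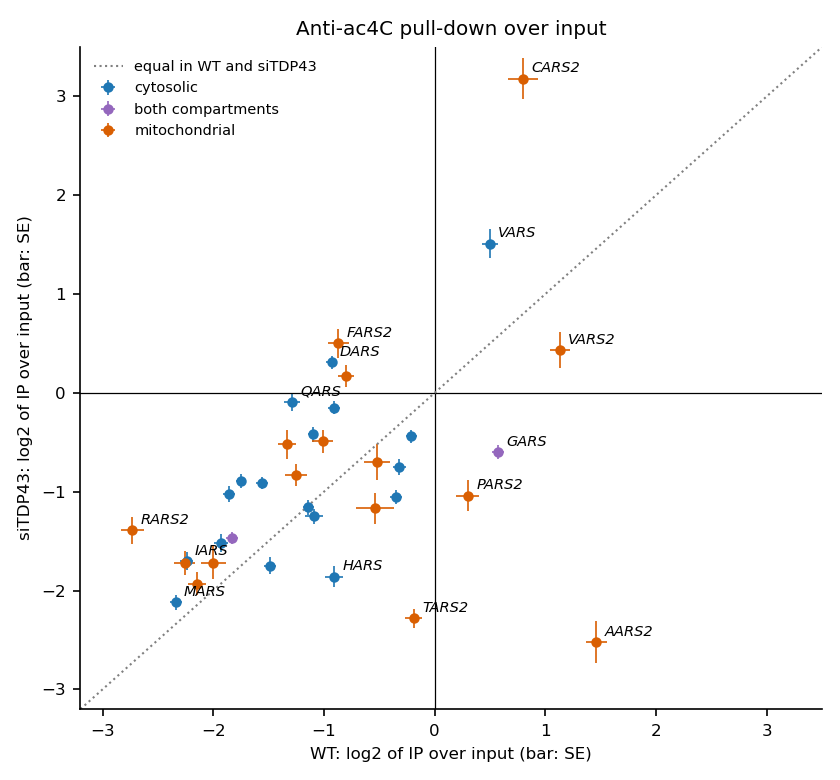
The log2 ratio of IP over input in siTDP43 cells is plotted against that in WT cells for the 36 members, with bars for the standard error and a dotted line of equality. Most points lie in the lower left, while AARS2 falls far below the line (1.46 in WT, -2.52 in siTDP43) and CARS2 above it (0.80 and 3.18).

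AARS2 had the largest loss in IP over input of all members, with a log2 change of -4.13 (SE 0.224, edgeR adjusted p = 1.52e-18). Its input was 2.91-fold higher in siTDP43 cells, while its CPM in IP was lower in every siTDP43 library than in any WT library. The change was -3.51 after removal of the GC trend. Over IgG the change was -0.08 (SE 0.423) and did not pass, and the CPM of AARS2 in IgG was lower in siTDP43 as well. TARS2 changed by -2.24 over input (SE 0.126, edgeR adjusted p = 4.54e-18), and its change relative to IgG was -2.87 (SE 0.165, adjusted p = 1.21e-17). The level of TARS2 rose in IgG, from 12.9 and 17.1 CPM to between 68.7 and 74.5 CPM, by more than it fell in IP. PARS2 (-1.49), GARS (-1.32) and HARS (-1.09) also had lower ratios over input in siTDP43. The mean of HARS rose in IP (28.9 to 58.8 CPM) but rose more in input (54.9 to 238 CPM). GARS read 181, 156 and 160 CPM in siTDP43 IP, below its input of 276 to 283 CPM and above its IgG of 87.4 to 94.7 CPM.

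The largest gains over input were those of CARS2 (2.23, SE 0.244), FARS2 (1.22, SE 0.178) and RARS2 (1.19, SE 0.172). FARS2 read 47.8, 44.2 and 36.4 CPM in siTDP43 IP, above 33.8, 35.5 and 32.2 CPM in input and 19.8, 9.71 and 17.8 CPM in IgG. In WT the order had been IgG, input, IP from high to low, and the change over IgG was 3.45 (SE 0.226, edgeR adjusted p = 4.68e-16). RARS2 read 32.7, 43.3 and 50.4 CPM in siTDP43 IP and 25.0, 23.5 and 15.3 CPM in IgG, a change over IgG of 3.82 (SE 0.216). MARS2 had the largest change over IgG, 4.11 (SE 0.357), with 33.9 and 26.3 CPM in WT IgG and 1.84, 4.05 and 0.712 CPM in siTDP43 IgG, while its IP held 11.8 to 13.6 CPM in WT and 14.6 to 16.3 CPM in siTDP43. The gain of MARS2 thus stood in the IgG libraries more than in IP. The mean of FARS2 also moved more in IgG (70.5 to 15.8 CPM) than in IP (17.4 to 42.8 CPM).

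Among the members of the multisynthetase complex, 5 gained and 2 lost over input, and 6 gained and 2 lost over IgG. The shares over input (62.5% and 25%) lay near those of all 36 members (50% and 33.3%). Those over IgG (75% and 25%) did so too (72.2% and 19.4% of all 36). DARS, the aspartyl enzyme, gained 1.09 over input (SE 0.086) and QARS 1.05 (SE 0.123), while LARS changed by -0.85. Over IgG, MARS gained 1.96 and QARS changed by -1. EPRS gained 0.73 over IgG, a value of -0.08 after removal of the GC trend. Outside the complex, CARS, the cysteinyl enzyme, changed by -1.10 over IgG, with 75.0 and 86.9 CPM in WT IgG and 147, 134 and 117 CPM in siTDP43 IgG. KARS gained 0.22 over input, and this value was -0.08 under total count scaling. For HARS2, the fold over WT IgG is a bound, and the change over IgG was therefore at most -4.77.

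**Figure D5:**
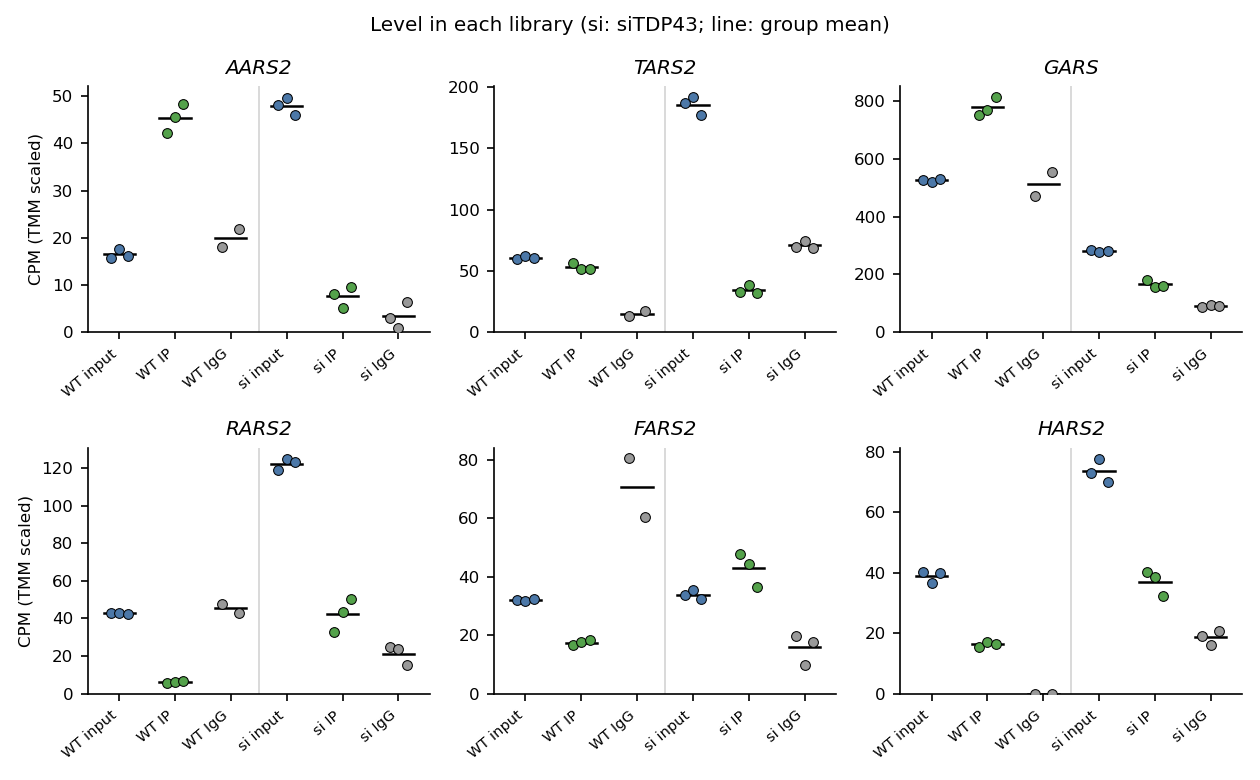
CPM in each of the 17 libraries is plotted on linear axes from 0 for 6 members, with a line at each group mean (WT groups left, siTDP43 groups right; n = 3, or 2 for WT IgG). AARS2 is highest in IP in WT (42.1 to 48.4 CPM) and low in both siTDP43 pull-downs, TARS2 and RARS2 rise in siTDP43 input, and HARS2 lies at 0 in both WT IgG libraries.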

How the data were processed

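Poly(A) RNA of HEK293T cells was measured in 17 libraries, grouped by the sample titles. The authors trimmed reads with Trim Galore 0.6.7, aligned them with STAR 2.7.10a to hg19 per the methods, and counted reads per gene with featureCounts 2.0.2. The deposited values are raw counts, not normalized, and their gene positions lie on hg19, although the processing notes name mm10. Whether counting used strand or read pairs is not given in the sources used here. Of the counts from 1 to 20, 81.3 to 95.9% were even, so mates appear to have been counted singly. No molecular identifiers were used, so amplified copies were counted.

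The test on counts was that of edgeR 4.0.16 in R 4.3.3 (TMM scaling, filterByExpr with a minimum count of 10, two-sided quasi-likelihood F test, Benjamini-Hochberg over all genes tested). Inputs were fitted in 6 libraries, WT in 8, siTDP43 in 9 and interactions in 17. Calls were made at an adjusted p under 0.05, and within a genotype they also had to exceed 2-fold. CPM are TMM-scaled over all libraries, and levels per length divide by the exon length of the primary chromosome. A group with at most 3 counts in each library was taken as at the floor, computed per library. Members named by rule were the 3 with the largest rise and fall per comparison (called, mean count of at least 100, no overlap of libraries), WARS, GARS, KARS and EPRS, and for companion lists the largest called rise and fall; others were named after their values were seen.

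The members, the lists and the tests were chosen with earlier results of these data known. Alternatives were DESeq2 1.42.0 (size factors and Wald test), total count scaling, no low-count filter, limma 3.58.1 on log2(FPKM + 1), a GC trend removed, a replicate block, more than 5-fold over IgG, and single libraries left out in turn. The fitting code was run on simulated counts in which few genes changed. That run cannot decide between the scalings for these data, where many genes were called. Replicates differed by more than sampling noise (chi-square per degree of freedom 3.26 to 9.43). Some genes and sequences are not reported here; they stayed in every fit and count.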

Additional observations from a re-analysis of the deposited data

Results flagged for a closer look

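Pull-down comparisons of 4 mitochondrial synthetases were called in opposite directions in WT and siTDP43 cells, with the difference itself passing the interaction test in edgeR. AARS2 was higher in IP than in input in WT and lower in siTDP43, a log2 change of -4.13, and its WT ratio was 0.96 with the GC trend removed, short of 2-fold. The change of AARS2 over IgG did not pass the test. From WT to siTDP43, its mean fell in IgG (19.9 to 3.38 CPM) as well as in IP (45.3 to 7.57 CPM). FARS2 was lower in IP than in IgG in WT (-2.04) and higher in siTDP43 (1.36), a change of 3.45. Its siTDP43 ratio was 0.79 with the GC trend removed, short of the 2-fold threshold. From WT to siTDP43, its mean moved more in IgG (70.5 to 15.8 CPM) than in IP (17.4 to 42.8 CPM). MARS2 went from -1.29 to 2.77 over IgG, a change of 4.11, and its level in IgG moved more than its level in IP. The siTDP43 IgG libraries held only 5, 10 and 2 counts of MARS2. TARS2 went from 1.81 to -1.12 over IgG, a change of -2.87, and its siTDP43 ratio was -0.91 under total count scaling and -0.86 with limma, short of the 2-fold threshold. Its level also moved more in IgG than in IP. IgG held 12.9 and 17.1 CPM of TARS2 in WT and 68.7 to 74.5 CPM in siTDP43. IP held 51.2 to 56.8 CPM in WT and 32.1 to 38.6 CPM in siTDP43. Single libraries were not tested as far from the others, since no group held more than 3.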

How the results depend on the processing

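Of 68 member values followed under every alternative, 54 kept their direction and their side of the threshold throughout, and in the input comparison 24 members rose whichever library was left out, with 8 or 9 falling. After removal of a GC trend from each library, members higher and lower were 3 and 18 for WT IP over IgG, 6 and 8 for WT IgG over input, and 5 and 9 for siTDP43 IP over IgG. The number of members higher was then 0 for WT IP over input, 1 for siTDP43 IP over input and 4 for siTDP43 IgG over input, 7 members had a lower change of IP over input, and 0 were ac4C(+) in WT. With limma on log2(FPKM + 1), 1 member was higher in IP than in input in WT and 1 in siTDP43, 0 were lower in siTDP43 IP than in IgG, and 10 had a higher change of IP over input. Total count scaling also gave 0 members lower in siTDP43 IP than in IgG, and more than 5-fold over IgG left 0 ac4C(+) members in WT. Leaving out single libraries gave 1 to 2 members lower in siTDP43 IP than in IgG (1 without siTDP43 IP replicate 1, which moved WARS2 to -0.86) and 1 to 2 members higher in siTDP43 IgG than in input (2 without siTDP43 input replicate 1 or siTDP43 IP replicate 3). Without WT IgG replicate 1, FARS2 in WT IgG over input was 0.94, under the 2-fold threshold. Signs reversed for the change of IP over IgG of EPRS (-0.08) and GARS (-0.05) with the GC trend removed, and for the change of IP over input of KARS (-0.08 under total count scaling and with limma). The change of GARS over IgG was 0.03 with DESeq2 size factors and fell short of the threshold without WT IgG replicate 2 (0.14) or siTDP43 IP replicate 1 (0.19), among others. Except by the construction of each alternative, the cause was not tested.

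Total count scaling shifted the median over all genes from -0.09 to -0.43 for siTDP43 IP over input and from -0.19 to -0.48 for its change, with members at -1.31 and -0.05. Over all genes, the GC correction raised the number lower in IP than in IgG from 2629 to 4392 in WT and from 1913 to 3807 in siTDP43. Within a genotype, limma lowered the counts over all genes, for instance from 3414 to 1803 higher in siTDP43 IP than in input and from 1913 to 1052 lower in siTDP43 IP than in IgG. In WT it gave 2508 lower in IP than in input (4026 by edgeR), 3318 higher and 1684 lower in IP than in IgG (5186 and 2629), and 3379 lower in IgG than in input (5400). In siTDP43 it gave 1866 higher in IgG than in input (3145).

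Residuals of libraries with the same replicate number had correlations of -0.018 to 0.022 between groups, so no pairing by number was seen. The check cannot exclude a pairing, since noise of each single library could hide it. With the replicate number as a block, 25 and 7 members had a higher and a lower change of IP over IgG, and the other member counts equalled those without the block (24 rose and 9 fell in input). The totals of the siTDP43 IgG libraries (3013989 to 3436811 counts) limit ratios for members under about 10 CPM there, such as AARS2, PARS2, MARS2 and LARS2. In these libraries LARS2 had 12, 4 and 12 counts.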
